A study of Saccharomyces cerevisiae with 36 samples.

Results

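The introns and mRNAs of genes that act late in secretion and at the vacuole were followed across 18 budding yeast mutants on splicing arrays. The genes were APS3, NYV1, SEC14, SEC17, SNC1 and VMA10 (YJL024C, YLR093C, YMR079W, YBL050W, YAL030W and YHR039C-A), chosen by their symbols in the array annotation. They made up 6 of the 230 genes with a symbol on the array and 18 of its 724 probes with a symbol. Each had 3 neighbouring probes, read in order as junction, intron and exon.

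The secretory pathway carries proteins in vesicles from the endoplasmic reticulum through the Golgi to the plasma membrane or the vacuole, the yeast counterpart of the lysosome. A vesicle fuses with its target when SNARE proteins on both membranes zip together, and the spent SNARE bundle is then pulled apart for reuse. SNC1 encodes a SNARE of secretory vesicles that acts at the plasma membrane, and SEC17 encodes the adaptor (alpha-SNAP) through which the ATPase Sec18 takes SNARE bundles apart. NYV1 encodes a SNARE of vacuole fusion. APS3 encodes the small subunit of the AP-3 adaptor, which sorts cargo from the Golgi to the vacuole, and Nyv1 itself travels by that route. SEC14 encodes a transfer protein for phosphatidylinositol and phosphatidylcholine that vesicle formation at the Golgi needs. VMA10 encodes a stalk subunit of the proton pump (V-ATPase) that acidifies the vacuole. Few yeast genes hold an intron, and it must be removed by the spliceosome before the mRNA of these genes can be translated in full.

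The series compared mutants in mRNA processing factors with wild-type cells on 36 arrays of 2 colours. Every mutant had 2 arrays, and the colours were swapped between them. For 16 mutants, deletion strains grown at 26 °C were set against the wild type BY4741. These lacked brr1 (needed to build spliceosomal snRNPs), cus2 and msl1 (U2 snRNP), ecm2 (spliceosome activation), gcr3 and mud13 (large and small subunit of the nuclear cap-binding complex), mud1 and nam8 (U1 snRNP), mud2 (binds near the branch point), prp17 and prp18 (second step of splicing), snu17 (RES complex), snu40 (U5-associated), snu66 (tri-snRNP), upf3 (nonsense-mediated decay) or hsp104 (a heat-shock disaggregase, not part of the spliceosome, known to help splicing recover after heat). The temperature-sensitive allele prp4-1a of a U4/U6 protein and its own wild type SS330 grew at 26 °C and were then held 2 h at 37 °C. The dbr1 mutant, which lacks the enzyme that opens excised intron lariats, was set against a wild type without a strain name, and both RNAs were pooled from haploid and diploid cells, dividing and sporulating. RNA came from whole cultures, so fewer cells of a kind and less RNA per cell cannot be told apart.

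All values are on the log2 scale, with the mutant in the numerator. Subtracting a gene's exon probe from its intron probe gives the intron index, which rises with unspliced RNA or excised intron per RNA of that gene. Subtracting it from the junction probe gives the junction index, a like measure of spliced RNA. Either index also moves when the exon probe does. A value was tested where both arrays of the mutant measured it. It is said to rise or fall where its adjusted p was under 0.05 (limma, 1 spread shared by all arrays, Benjamini-Hochberg over all introns or genes of the mutant). Errors beside fitted values are standard errors of that fit with n = 2 arrays. The sources used here do not say if both arrays of a mutant drew on separate cultures. P-values therefore reflect how far arrays differ, for which technical causes cannot be told apart from differences between cultures. At introns that spread was 6.13 times the median mutant's in prp4-1a, 3.06 times in mud13, 2.42 times in dbr1 and 2.20 times in snu66. At exon probes it was 3.46 times in mud13, 3.40 times in prp4-1a, 1.75 times in prp18 and 1.71 times in gcr3. For the junction index it was 6.11 times in prp4-1a, 3.53 times in mud13 and 1.78 times in snu17. Errors there are too small.

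The labels name the channel of each RNA but not which channel is the numerator. Channel 2 over channel 1 is the likely direction, because the exon probe of a deleted gene then falls: MUD1 averaged −2.56 ± 0.10 (SD, n = 2) in mud1 and STO1, the gene deleted in gcr3, −5.59 ± 0.31. With the mutant in channel 2, the prp4-1a array correlated over all probes at −0.43 with hsp104, −0.40 with cus2 and −0.36 with nam8, and hsp104 at −0.36 with snu17. These correlations between arrays of 1 orientation do not bear on the sign common to all arrays, but no label states the numerator of any array, so the direction is given as likely and not as settled. With the sign turned, each rise below would be a fall and each fall a rise. Precision is limited by the number of arrays, and no intensities show which probes were above background. The APS3 intron probe gave a value on 30 arrays, that of SNC1 on 32, SEC14 on 34, SEC17 on 35 and NYV1 and VMA10 on 36, whereas the junction and exon probes of all 6 genes did so on all 36.

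Introns of the 6 genes accumulated in 13 of the 18 mutants. Of 96 intron values tested, 55 rose and 0 fell by limma (59 and 0 at an unadjusted p under 0.05). Over all introns and mutants 49.6% of values rose and 0.783% fell, so the share of rises among the 6 genes was near that of the array. With the sign turned, 55 would fall. The dye left an offset that the fit removes: in hsp104 the intron indices of the 6 genes lay between −0.26 and −0.09 with the mutant in channel 2, and between 0.17 and 0.29 for the 5 of them measured with the mutant in channel 1. The 2 arrays of a mutant are given below in that order.

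All 6 introns rose in prp4-1a (97.2% of all introns tested), brr1 (94.3%) and snu66 (92.6%), as did the 5 that were tested in snu17 (94.2%) and in msl1 (94.3%). Of 5 tested, 4 rose in prp18 (74.9%), in gcr3 (66.4%) and in prp17 (30.9%, with 5.8% lowered). Of 6 tested, 4 rose in mud2 (43.3%), 3 in mud13 (50.2%) and 3 in mud1 (25%). The remaining rises were 3 of 4 in dbr1 (81.6%) and 2 of 5 in upf3 (36.7%). In cus2, snu40 and hsp104 none of 5 rose, where 0% of all introns did. None of 5 rose in ecm2 (3.98%) and none of 6 in nam8 (4.52%). At an unadjusted p under 0.05 the only members raised in these 5 strains were NYV1 in nam8 (0.49 ± 0.19) and NYV1 in snu40 (0.50 ± 0.19), and the latter was the highest of 186 introns of that strain although its limma adjusted p was 0.891. When arrays were weighted by each mutant's spread, 63 intron values rose in 15 mutants (55.9% of all). Among them were SNC1 (0.36), SEC17 (0.36) and NYV1 in snu40 (14% of all introns) and NYV1 in nam8 (16.7%). With the same weights the snu40 exon probes of SNC1 (−0.23), SEC17 (−0.25) and NYV1 (−0.28) fell, which raises each index. The other values gained were SEC17 and VMA10 in mud1, NYV1 in gcr3, VMA10 in prp17 and SEC17 in upf3, and SEC17 in mud13 was lost.

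**Figure D1:**
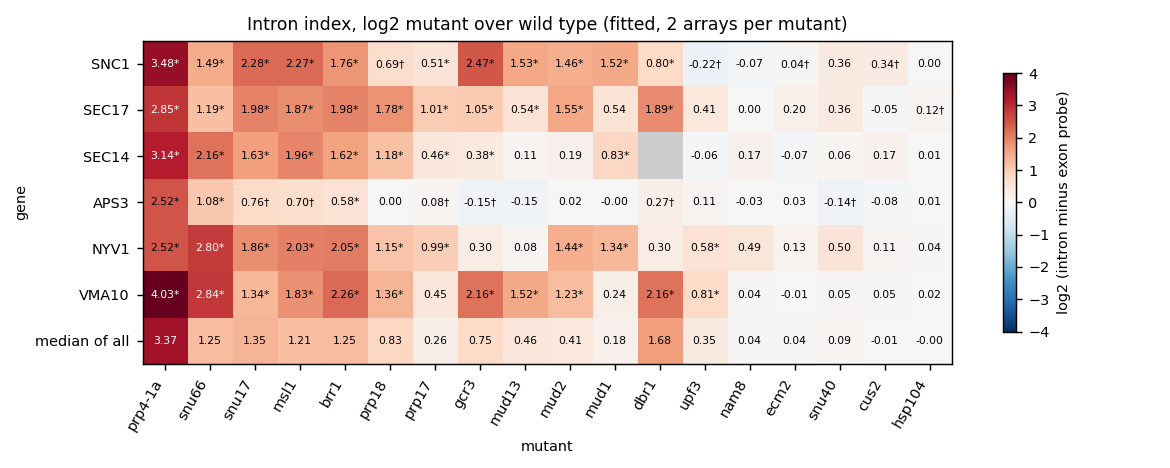
Fitted intron index (log2 of mutant over wild type, intron minus exon probe) of the 6 genes in the 18 mutants, with the median of all introns tested in the bottom line. An asterisk marks an adjusted p under 0.05, a dagger a value from 1 array (not tested) and grey a value not measured; VMA10 in prp4-1a (4.03) is the highest value and the 5 columns on the right hold no call.

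SNC1, the vesicle SNARE at the plasma membrane, rose in 11 of 14 mutants tested. SEC17 and VMA10 also rose in 11, of 17 and 18 tested. SNC1 had no test in cus2, ecm2, prp18 and upf3, and few or no introns of the array rose in cus2 and ecm2. The SNC1 intron index was 2.13 and 2.81 on the gcr3 arrays, which gave a fitted 2.47 ± 0.19, or 5.55-fold (limma, adjusted p = 1.64e-10), and was the 6th highest of 214 introns. In mud1 the arrays read 1.25 and 1.79, and the fitted 1.52 ± 0.19 was the 2nd highest of 212 introns (limma, adjusted p = 4.97e-06). Both arrays of each strain stood far above the median intron, which was 0.75 in gcr3 and 0.18 in mud1. The index was 1.93 and 2.61 in msl1 (fitted 2.27, the 2nd highest of 193), 2.01 and 2.55 in snu17 (fitted 2.28, the 8th of 208), 1.30 and 1.76 in mud13 (fitted 1.53, the 9th of 215) and 1.36 and 1.56 in mud2 (fitted 1.46, the 7th of 215). SNC1 was thus near the top of the array in strains that lack a cap-binding subunit, a U1 or U2 snRNP protein, the branch point factor or the RES protein. It stood in the middle in prp4-1a (3.89 and 3.07, fitted 3.48, the 103rd of 216) and in snu66 (1.36 and 1.61, the 73rd of 203), and below the median in dbr1 (0.61 and 1.00, the 135th of 185). In brr1 it read 1.32 and 2.21, the 32nd of 212. Its rise in prp17 (0.31 and 0.71, fitted 0.51 ± 0.19, limma adjusted p = 0.0404) did not pass when either prp17 array was left out (0.50 and 0.53). In nam8, another U1 strain, its arrays read −0.34 and 0.19.

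Over the 194 introns tested in 15 or more mutants, the median intron rose in 9 mutants (lowest 0, highest 14). The counts of SEC17 (11), VMA10 (11), NYV1 (10) and SEC14 (9) were near that median, and SNC1 and APS3 had fewer tests. SEC17, the alpha-SNAP gene, rose in 11 of 17 mutants and was highest in rank in mud2 and prp18. The mud2 arrays read 1.39 and 1.72, for a fitted 1.55 ± 0.21, or 2.94-fold, the 5th highest of 215 introns (limma, adjusted p = 1.53e-06). In prp18 they read 1.52 and 2.05, for a fitted 1.78 ± 0.21, the 6th highest of 207 (limma, adjusted p = 9.11e-08). In prp17, the other second-step strain, they read 0.77 and 1.25, the 19th highest of 207. All 4 arrays of the second-step strains lay above the medians of 0.83 and 0.26. The fitted index was 1.98 in brr1 (1.84 and 2.12), 1.98 in snu17 (1.94 and 2.01), 1.87 in msl1 (1.29 and 2.45) and 1.89 in dbr1 (1.46 and 2.31). It was 1.05 in gcr3 (0.71 and 1.40) and 1.19 in snu66 (1.16 and 1.22), the 112th of 203 in the latter. In mud1 the fitted 0.54 ± 0.21 (0.20 and 0.87) had a limma adjusted p of 0.0582. The rise in mud13 (0.42 and 0.66, fitted 0.54 ± 0.21, limma adjusted p = 0.0341) did not pass when arrays were weighted by each mutant's spread, nor when either mud13 array was left out (0.45 and 0.63).

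NYV1, the vacuolar SNARE, rose in 10 of 18 mutants and was most prominent where the tri-snRNP protein Snu66 was missing. Its snu66 arrays read 2.79 and 2.81, for a fitted 2.80 ± 0.19, or 6.98-fold, the 3rd highest of 203 introns (limma, adjusted p = 2.23e-12). The mud1 arrays read 1.38 and 1.31, for a fitted 1.34 ± 0.19, the 4th highest of 212 (limma, adjusted p = 6.01e-06). In both strains the arrays agreed closely and stood apart from medians of 1.25 and 0.18. NYV1 also ranked high in msl1 (1.39 and 2.66, the 8th of 193), mud2 (1.24 and 1.64, the 8th of 215), brr1 (2.02 and 2.09, the 17th of 212), prp17 (0.80 and 1.18, the 22nd of 207) and snu17 (1.86 and 1.85, the 24th of 208). It rose in prp18 too (0.72 and 1.57). It was low among introns in prp4-1a, where 2.65 and 2.39 made it the 147th of 216, and did not pass in dbr1 (−0.05 and 0.65, fitted 0.30 ± 0.19), gcr3 (0.19 and 0.41) or mud13 (0.11 and 0.05). Its rise in upf3 (0.31 and 0.85, fitted 0.58 ± 0.19, limma adjusted p = 0.0175) did not pass when either upf3 array was left out (0.47 and 0.69).

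APS3, the AP-3 subunit gene, was the least responsive of the 6, with 3 rises in 12 mutants tested. It rose in prp4-1a (2.52 and 2.53, fitted 2.52 ± 0.16), in snu66 (1.03 and 1.14, fitted 1.08 ± 0.16) and in brr1 (0.23 and 0.94, fitted 0.58 ± 0.16, limma adjusted p = 0.00201). Without the brr1 array that had the mutant in channel 1, the last was 0.43 and did not pass. In prp18 its arrays read −0.20 and 0.21 while the median intron was 0.83. In mud2 they read −0.26 and 0.30, in mud1 −0.34 and 0.34, and in mud13 −0.13 and −0.17. The fitted values in these 4 strains lay between −0.15 and 0.02, and APS3 was the 194th of 207 introns in prp18 and the 203rd of 215 in mud13. Of the 6 intron probes, that of APS3 had the fewest usable spots, 71 of 144, and the part of this in its low values was not tested.

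SEC14, the lipid transfer protein gene, rose in 9 of 17 mutants, and its dbr1 value was not measured. Its largest index in a deletion strain was in snu66 (2.05 and 2.28, fitted 2.16 ± 0.17, or 4.48-fold, the 15th of 203, limma adjusted p = 1.73e-11). It read 1.54 and 2.37 in msl1, the 11th of 193, and 0.60 and 1.06 in mud1, the 13th of 212. In brr1 (1.68 and 1.57), snu17 (1.66 and 1.60) and prp18 (0.89 and 1.47) it stood between the 50th and the 56th place. It rose to 3.14 ± 0.17 in prp4-1a (2.91 and 3.37), below the median of 3.37. In mud13 (0.10 and 0.12) and mud2 (0.05 and 0.33) both arrays lay below the median intron and the test was not passed. The rises in gcr3 (0.11 and 0.65, fitted 0.38 ± 0.17, limma adjusted p = 0.0474) and prp17 (0.29 and 0.63, fitted 0.46 ± 0.17, limma adjusted p = 0.0310) came with lower exon probes, and the intron probe alone read −0.00 and −0.0737. Neither passed when either array of its strain was left out (0.31 and 0.44 in gcr3, 0.42 and 0.50 in prp17).

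VMA10, the V-ATPase stalk gene, held the highest index of the 6 genes and rose in 11 of 18 mutants. The prp4-1a arrays read 4.58 and 3.49, for a fitted 4.03 ± 0.21, or 16.4-fold, the 56th of 216 introns (limma, adjusted p = 1.55e-16). In snu66 they read 2.89 and 2.79, for a fitted 2.84 ± 0.21, or 7.16-fold, the 2nd highest of 203 (limma, adjusted p = 5.02e-12). Both snu66 arrays were far above the median intron, which was 1.25. VMA10 was next to SNC1 in the cap-binding strains: gcr3 read 1.95 and 2.37 (fitted 2.16, the 11th of 214) and mud13 1.51 and 1.53 (fitted 1.52, the 10th of 215). It was the 7th of 212 in brr1 (2.06 and 2.45) and the 16th of 215 in mud2 (1.00 and 1.46). In dbr1 it read 1.82 and 2.50 (fitted 2.16), the highest of the 4 genes tested there. It rose in msl1 (1.58 and 2.07), prp18 (0.86 and 1.87) and snu17 (1.18 and 1.51), the last at the median. In mud1, where SNC1 and NYV1 were high, VMA10 read 0.08 and 0.41 and did not pass (fitted 0.24 ± 0.21, limma adjusted p = 0.412), and in prp17 it read 0.36 and 0.54 (fitted 0.45 ± 0.21, limma adjusted p = 0.0948). VMA10 and NYV1 were the 2 genes that rose in upf3, VMA10 with 0.60 and 1.01 (fitted 0.81 ± 0.21, limma adjusted p = 0.00435), a value that did not pass when either upf3 array was left out (0.77 and 0.85).

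**Figure D2:**
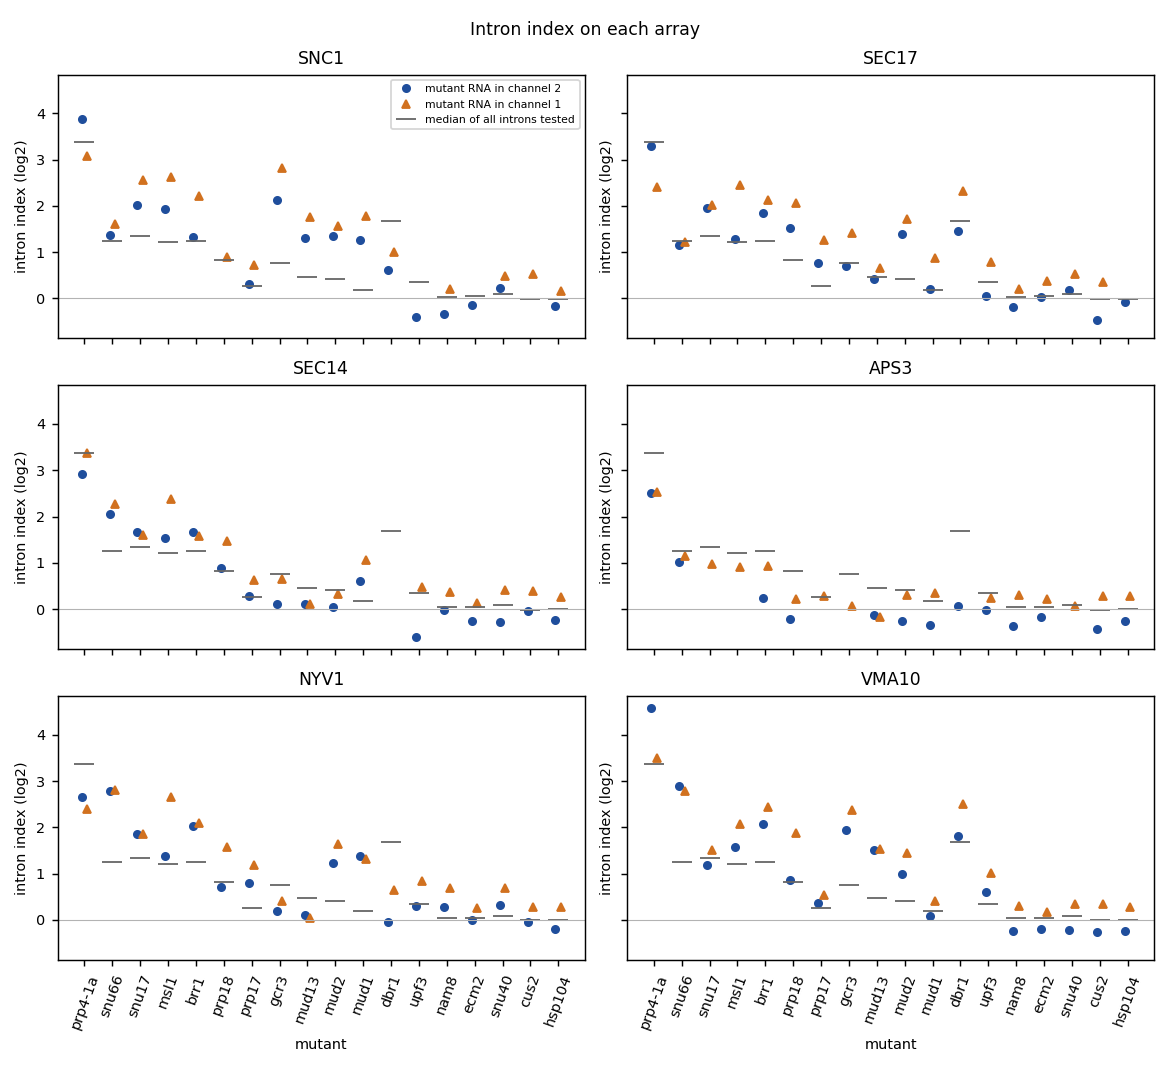
Intron index on each array by gene and mutant (circles, mutant RNA in channel 2; triangles, mutant RNA in channel 1; grey bars, the median fitted index of all introns tested in that mutant). For SNC1 both gcr3 and both mud1 arrays stand above the bars, whereas for APS3 no array of mud13, mud2 or prp18 does so.

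The excess of an intron is its index minus the median index of all introns on the same array, and it asks whether an intron moved more or less than most. Of 96 values tested, 35 were higher than the typical intron and 10 were lower by limma, where over all introns 18.2% were higher and 15.9% lower (36.5% and 10.4% for the 6 genes; 39 and 13 at an unadjusted p under 0.05). With the sign turned these would be 35 lower and 10 higher. VMA10 was higher in 10 mutants and lower in none, but its upf3 value (0.47) did not pass when either upf3 array was left out. SEC17 was higher in 8 and lower in prp4-1a alone (−0.48 ± 0.14). SNC1 was higher in 7 and lower in dbr1 (−0.71 ± 0.14), and NYV1 was higher in 7 and lower in prp4-1a (−0.80 ± 0.15), gcr3 (−0.44 ± 0.15) and dbr1 (−1.21 ± 0.15). Without the array with the mutant in channel 1, the lower values of SEC17 in prp4-1a (−0.30), SNC1 in dbr1 (−0.38) and NYV1 in gcr3 (−0.32) did not pass, nor did those of SEC17 and NYV1 in prp4-1a when arrays were weighted by each mutant's spread. APS3 was higher in none of 12 and lower in 5: prp18 (−0.85 ± 0.14), prp4-1a (−0.80 ± 0.14), brr1 (−0.68 ± 0.14), mud13 (−0.58 ± 0.14) and mud2 (−0.40 ± 0.14). SEC14 was higher in snu66 (0.93 ± 0.17), msl1 (0.77 ± 0.17) and mud1 (0.64 ± 0.17) and lower in none in this fit. With arrays weighted by each mutant's spread, SEC14 was lower in gcr3 (−0.36), mud2 (−0.23) and upf3 (−0.40), and APS3 was lower in mud1 (−0.19) as well. Those weights also added higher values, among them NYV1 in nam8 (0.46) and SNC1 (0.26), SEC17 (0.26) and NYV1 (0.40) in snu40. In snu40 the exon probes of SNC1, SEC17 and NYV1 fell with those weights. APS3 in mud2 (−0.37 and −0.43) and SEC14 in mud1 (0.67 and 0.62) did not pass when either array was left out, nor did APS3 in mud13 without the array with the mutant in channel 1 (−0.41) or when arrays were weighted by each mutant's spread. Fewer genes stayed higher in snu17 without the array with the mutant in channel 2, and in prp18 without the one with the mutant in channel 1.

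By mutant, excess was highest in count in msl1, where all 5 genes tested were above the typical intron (18.7% of all introns). On the 2 arrays SNC1 read 0.91 and 1.26, NYV1 0.37 and 1.31, SEC14 0.52 and 1.02, SEC17 0.27 and 1.10 and VMA10 0.56 and 0.72. All 10 values were positive, but those of SEC17, NYV1 and SEC14 did not pass without the array with the mutant in channel 1 (0.34, 0.39 and 0.61). In brr1 and mud2, 4 of 6 genes were above the typical intron (20.8% and 20%) and APS3 was below it (21.2% and 11.6% of all introns were). In snu66 and mud1, 3 of 6 were above it (26.6% and 12.7%): VMA10 (1.61 ± 0.12), NYV1 (1.57 ± 0.15) and SEC14 in snu66, and SNC1 (1.33 ± 0.14), NYV1 (1.15 ± 0.15) and SEC14 in mud1. In gcr3 it was SNC1 (1.73 ± 0.14), VMA10 (1.42 ± 0.12) and SEC17 (0.31 ± 0.14), 3 of 5 (34.1%), where SEC17 did not pass when either array was left out (0.39 and 0.23). SNC1 in brr1 did not pass without the array with the mutant in channel 1 (0.28). In mud13 SNC1 (1.10 ± 0.14) and VMA10 (1.09 ± 0.12) were above it, 2 of 6 (25.6%). SNC1 and VMA10 were thus above the typical intron in both cap-binding strains, VMA10, NYV1 and SEC14 in snu66, and SNC1, NYV1 and SEC14 in mud1; mud1 and snu66 were not tested against each other.

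Against the typical intron, prp4-1a and dbr1 depended on what was typical. In prp4-1a 1 of 6 genes was higher and 3 were lower (42.1% of all introns in either direction), and in dbr1 2 of 4 were higher (42.2%) and 2 lower (36.2%). SEC17 in dbr1 (0.38 ± 0.14) did not pass without the array with the mutant in channel 2 (0.30), nor when arrays were weighted by each mutant's spread. Introns of ribosomal protein genes reached a median index of 4.03 in prp4-1a and 2.26 in dbr1, above the medians of 3.37 and 1.68 over all introns. Set against introns outside ribosomal protein genes, 4 of 6 genes were higher in prp4-1a (60.6% of all introns) and 0 lower (19%) by limma: VMA10 (1.62), SNC1 (1.07), SEC14 (0.73) and SEC17 (0.43), while APS3 and NYV1 (0.11 each) did not pass. In dbr1 VMA10 (1.31) and SEC17 (1.04) were then higher (60.5%), NYV1 (−0.55) was lower (23.2%) and SNC1 (−0.04) did not pass.

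**Figure D3:**
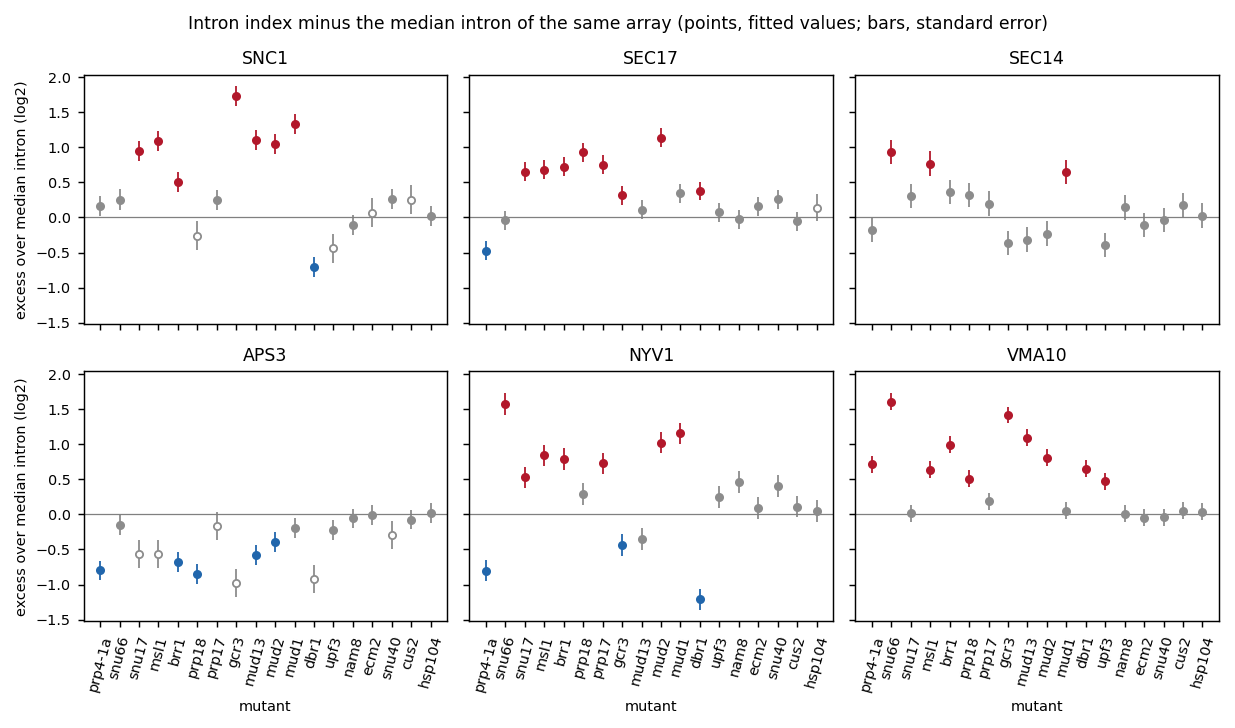
Excess of the intron index over the median intron of the same array (log2, fitted value with its standard error, n = 2 arrays) for the 6 genes in 18 mutants. Red marks values above and blue values below the typical intron at an adjusted p under 0.05, grey values did not pass, and open symbols come from 1 array; no APS3 point is red and no VMA10 or SEC14 point is blue.

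Pairs of strains that share a complex or a step were compared in the same fit. Between the U1 strains, the SNC1 intron was higher in mud1 than in nam8 by 1.59 ± 0.27 (limma, adjusted p = 0.00143), the 1 gene of 6 to differ where 1.9% of all introns were higher. Between the cap-binding strains, SNC1 was higher in gcr3 than in mud13 by 0.94 ± 0.27 (limma, adjusted p = 0.0237), the 1 gene of 5 (11.8%). The VMA10 difference there was 0.64 ± 0.29 and did not pass. In excess none of the 5 genes differed by limma (4.72% of introns were higher and 3.77% lower; 1 gene at an unadjusted p under 0.05), SNC1 with 0.63 ± 0.20 (limma, adjusted p = 0.0605). Between mud1 and mud2, whose proteins act in early spliceosome assembly, SEC17 and VMA10 were lower in mud1, by 1.02 ± 0.30 and 0.98 ± 0.29 (differences of −1.02 and −0.98, limma, adjusted p = 0.0278 for each), 2 of 6 genes where 8.1% of introns were lower. NYV1 (−0.10 ± 0.26) and SNC1 (0.06 ± 0.27) did not pass, nor did SEC14 (0.65 ± 0.23, limma, adjusted p = 0.085).

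In the second-step strains, 3 of 4 genes had a lower intron index in prp17 than in prp18 (35.9% of all introns). The differences were −0.92 ± 0.29 for VMA10, −0.77 ± 0.30 for SEC17 and −0.72 ± 0.23 for SEC14 (limma, adjusted p = 0.0181, 0.0445 and 0.0198), against −0.16 ± 0.26 for NYV1, which did not pass. In excess none of the 4 genes differed by limma (7.58% of introns were higher and 6.06% lower; 0 genes at an unadjusted p under 0.05), with differences from −0.32 ± 0.17 for VMA10 to 0.44 ± 0.22 for NYV1. NYV1 was lower in ecm2 than in prp17 by 0.86 (−0.86 ± 0.26, limma, adjusted p = 0.0270), 1 gene of 4 (13.8%).

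The snu66 strain was compared with 4 other strains with broad effects. VMA10 was higher in snu66 (2.84) than in snu17 (1.34; standard error of the difference 0.29, limma, adjusted p = 0.00165), and higher than in msl1 by 1.01 ± 0.29 (limma, adjusted p = 0.0445). NYV1 was higher in snu66 than in snu17 by 0.95 ± 0.26 (limma, adjusted p = 0.0264). These were 2 of 5 genes in the first comparison (5.13%) and 1 of 5 in the second (3.85%). The excess of SNC1 and SEC17 went the other way, lower in snu66 than in snu17 by 0.70 and 0.69 (−0.70 ± 0.20 and −0.69 ± 0.19, limma, adjusted p = 0.0196 and 0.0122), 2 of 5 (9.74%), while that of VMA10 (1.59 ± 0.17) and NYV1 (1.04 ± 0.22) was higher (13.8%). Against msl1 the excess differed in the same directions, with VMA10 (0.97 ± 0.17) and NYV1 (0.73 ± 0.22) higher in snu66 (9.89%) and SNC1 (−0.83 ± 0.20) and SEC17 (−0.73 ± 0.19) lower (5.49%). Between brr1 and snu66 no index of the 6 genes passed the limma test (1 higher and 3 lower in brr1 at an unadjusted p under 0.05), where 0% of introns were higher and 2.5% lower in brr1. In excess SEC17 was higher in brr1 by 0.76 ± 0.19 (1.5%), and NYV1 (−0.78 ± 0.22) and VMA10 (−0.61 ± 0.17) were lower (5.5%). Against prp4-1a, 5 of 6 genes had a lower index in snu66 (87.9%), from −1.99 ± 0.27 for SNC1 to −0.98 ± 0.23 for SEC14. NYV1 was the exception, at 2.80 in snu66 and 2.52 in prp4-1a (0.28 ± 0.26). In excess the direction turned: 5 of 6 were higher in snu66 (38.2%) and 0 lower (35.7%) by limma. The differences ran from 0.43 ± 0.19 for SEC17 to 2.37 ± 0.22 for NYV1, and SNC1 (0.10 ± 0.20) did not pass. That turn depended on the median used. Against introns outside ribosomal protein genes, NYV1 read 1.49 in snu66 and 0.11 in prp4-1a, and SEC14 0.85 and 0.73. The other genes were lower in snu66: VMA10 (1.53 and 1.62), SNC1 (0.17 and 1.07), SEC17 (−0.13 and 0.43) and APS3 (−0.23 and 0.11). These differences were not tested. The prp4-1a arrays also had their own wild type, a temperature shift and the widest spread, whose part was not tested. Between the U2 strains, all 4 genes that could be compared were higher in msl1 than in cus2 (89.3%), by 1.78 to 1.92.

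The spliced junction moved little outside prp4-1a. Of 108 junction values 0 rose and 6 fell by limma (0 and 13 at an unadjusted p under 0.05), where over all genes 1.45% rose and 8.34% fell. In prp4-1a 4 of 6 fell (54.7%) and 0 rose (16.5%): SEC14 (−1.66 and −1.19, fitted −1.42 ± 0.11), VMA10 (−0.38 and −1.25, fitted −0.81 ± 0.11), NYV1 (0.25 and −1.65, fitted −0.70 ± 0.24) and SNC1 (−0.39 and −0.83, fitted −0.61 ± 0.12). The 2 NYV1 arrays had opposite signs, and its value was 0.26 without the one with the mutant in channel 1 and −1.66 without the other. When arrays were weighted by each mutant's spread, SNC1 (limma, adjusted p = 0.406) and NYV1 no longer passed in prp4-1a. In the fit that included prp4-1a, SEC14 was the 1 gene of 6 whose junction fell in deletion strains, which did not hold without prp4-1a (below). SEC14 fell in ecm2 (−0.61 and −0.37, fitted −0.49 ± 0.11, limma adjusted p = 0.00923, where 2.76% of junctions fell) and in mud1 (−0.45 and −0.40, fitted −0.42 ± 0.11, limma adjusted p = 0.0282, where 2.29% fell). Neither passed when either array of its strain was left out. In brr1 and gcr3 none of the 6 junctions rose (2.33% and 0.917% of all). In the ecm2 strain the SEC14 intron arrays read −0.27 and 0.13.

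The count of lowered junctions depended on how the prp4-1a arrays entered the spread. With prp4-1a left out 15 values fell, and with arrays weighted by mutant 27 did (20.4% of all junction values). The share of all junctions that fell without prp4-1a is not given here, so those 15 falls are not set against the array. Without prp4-1a, APS3 fell in brr1, ecm2, prp17, prp18 and upf3, and NYV1 in mud1, prp17 and prp18. SNC1 then fell in gcr3, prp17 and prp18, and VMA10 and SEC14 in ecm2 and mud1. The weighted calls included NYV1 in prp18 (−0.44), prp17 (−0.38), mud1 (−0.35) and gcr3 (−0.24), APS3 in ecm2 (−0.34), prp17 (−0.33), upf3 (−0.33) and brr1 (−0.31), and SNC1 in gcr3 (−0.31), prp17 (−0.28), snu66 (−0.27) and prp18 (−0.25). Leaving out 1 array moved the count above 9 only for prp4-1a, to 21 without the array with the mutant in channel 2 and to 18 without the other. In the unweighted fit of all 36 arrays, the weighted calls named here had a limma adjusted p over 0.05.

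Exon probes follow the level of a gene's RNA. As deposited, 9 of 108 values rose and 24 fell by limma (11 and 32 at an unadjusted p under 0.05), where over all genes 4.7% rose and 24% fell. With each array centred on its exon and intronless probes, 26 rose and 16 fell (13% and 13.9% of all). The median exon value as deposited was −1.24 in prp4-1a and between −0.31 and 0.16 in the other strains, so a value is best read beside that median. In prp4-1a 5 of 6 fell as deposited (76.2% of all genes). VMA10 read −1.59 and −1.40 (fitted −1.49 ± 0.12), SNC1 −0.63 and −0.65, SEC14 −0.05 and −0.85, SEC17 −0.29 and −0.59 and APS3 −0.22 and −0.36. After centring VMA10 was still lower (−0.29 ± 0.08), whereas SNC1 (0.56), SEC14 (0.75), SEC17 (0.76), APS3 (0.91) and NYV1 (1.16) passed as rises (47.1% of all genes rose and 48% fell). NYV1 as deposited was −0.04 ± 0.10. VMA10 was therefore the 1 gene of the 6 whose RNA fell in prp4-1a under both scalings. As deposited, SEC14 was −0.00 without the array with the mutant in channel 1 and APS3 −0.27 without the other, and neither passed. When arrays were weighted by each mutant's spread, SEC17, SEC14 and APS3 no longer passed in prp4-1a.

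The second-step strain prp18 raised 4 of 6 exon values (19.3% of all genes) and lowered SEC14 (44.8%). NYV1 read 1.08 and 0.50 (fitted 0.79 ± 0.10, the 11th highest of 223), SEC17 0.85 and 0.12 (fitted 0.49 ± 0.13), SNC1 0.70 and 0.11 (fitted 0.41 ± 0.11) and APS3 0.36 and 0.07 (fitted 0.22 ± 0.10). All 8 values were above 0, and all 4 passed as rises after centring (0.99, 0.68, 0.60 and 0.42), where 32.3% of all genes did. With arrays weighted by each mutant's spread, the rise of APS3 as deposited did not pass. SEC17, SNC1 and APS3 did not pass without the array with the mutant in channel 2 (0.21, 0.27 and 0.15), and APS3 (0.28) and SEC14 (−0.43) did not pass without the other. In prp17 1 of 6 rose (5.33%), SNC1 (0.48 and 0.24, fitted 0.36 ± 0.11), which did not pass without either array (0.31 and 0.41), and 1 fell (41.3%), SEC14 (−0.64 and −0.42, fitted −0.53 ± 0.13), which did not pass without the array with the mutant in channel 2 (−0.44). After centring 4 of 6 rose in prp17 (21.3%): SNC1 (0.62), APS3 and NYV1 (0.29 each) and VMA10 (0.27). As deposited, NYV1 and SEC17 were lower in prp17 than in prp18 by 0.76 and 0.55 (−0.76 ± 0.14 and −0.55 ± 0.18, limma, adjusted p = 0.000491 and 0.0318), 2 of 6 genes (16.1%). In both second-step strains SNC1 and SEC14 RNA went in opposite directions as deposited, with SNC1 up and SEC14 down; after centring the SEC14 fall still passed in prp18 (−0.35 ± 0.14) but not in prp17 (−0.27).

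In brr1 and msl1 the exon probes of SNC1, SEC17, SEC14 and NYV1 fell together, 4 of 6 in each (40.7% and 41% of all genes). The brr1 values were −0.76 ± 0.13 for SEC17 (−0.49 and −1.03), −0.59 ± 0.10 for NYV1 (−0.53 and −0.64), −0.58 ± 0.13 for SEC14 (−0.67 and −0.48) and −0.55 ± 0.11 for SNC1 (−0.20 and −0.89). These 4 also passed as falls after centring, the weakest at −0.35 for SNC1. As deposited, SNC1 did not pass without the array with the mutant in channel 1 (−0.35), nor SEC14 without the other (−0.50). In msl1 SNC1 fell to −0.68 ± 0.11 (−0.54 and −0.82) and was the 1 of the 4 that passed after centring (−0.42). The msl1 falls of SEC17 (−0.50), SEC14 (−0.46) and NYV1 (−0.39) did not pass when either array was left out. In snu17 3 of 6 fell (34.7%), NYV1 with the lowest value (−0.68 and −0.72, fitted −0.70 ± 0.10). The snu17 falls of SNC1 (−0.37) and SEC17 (−0.33) did not pass when either array was left out. As deposited, single falls by limma were NYV1 in snu66 (−0.55 ± 0.10, 12.6% of all genes) and in mud1 (−0.47 ± 0.10, 8%). The others were SEC17 in mud2 (−0.55 ± 0.13, 13.7%) and SNC1 in mud13 (−0.59 ± 0.11, 44.4%). All 4 passed after centring as well. In mud1 SNC1 (−0.29) and SEC17 (−0.33) also fell after centring and with arrays weighted by each mutant's spread. Those weights added falls of SNC1 (−0.21), VMA10 (−0.22) and NYV1 (−0.18) in mud2, where APS3 (0.27) rose. NYV1 in mud1 did not pass without the array with the mutant in channel 2 (−0.36), SEC17 in mud2 without the one in channel 1 (−0.44), and SNC1 in mud13 when arrays were weighted by each mutant's spread. In gcr3 SNC1 (−0.54 ± 0.11) and SEC14 (−0.38 ± 0.13) fell, 2 of 6 (50%), and SEC14 did not pass after centring (−0.0901) or when either array was left out (−0.39 and −0.36).

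As deposited, APS3 RNA rose in gcr3, upf3 and prp18. In gcr3 it read 0.65 and 0.39 (fitted 0.52 ± 0.10, or 1.44-fold, the 6th highest of 226, limma adjusted p = 5.10e-05) against a median of −0.31, and it was the 1 gene of 6 to rise (6.64%). In upf3, which lacks a factor of nonsense-mediated decay, it read 0.66 and 0.42 (fitted 0.54 ± 0.10, the 9th highest of 226, limma adjusted p = 0.000174), again 1 of 6 (6.64%). No array of these strains was below 0.39, and the centred values were 0.81 and 0.70. After centring APS3 was not the only one of the 6 genes to rise there: VMA10 (0.24) and NYV1 (0.23) did so in gcr3 (24.8% of all genes) and SNC1 (0.27) in upf3 (16.4%). APS3 itself then rose in 10 mutants, also in prp4-1a, mud13 (0.43), prp18 (0.42), brr1 (0.38), msl1 (0.38), mud2 (0.36), snu17 (0.35) and prp17 (0.29). NYV1 (0.28) rose in mud13 and VMA10 (0.31) in snu17 after centring too. For mud13, brr1, msl1, mud2 and snu17 the share of all genes that rose after centring is not given here. The upf3 value exceeded that of hsp104 by 0.50 ± 0.13 (limma, adjusted p = 0.0128), where 4.46% of genes did. The other rises were VMA10 in dbr1 (0.61 and 0.40, fitted 0.50 ± 0.12, the 4th highest of 226, limma adjusted p = 0.0159), 1 of 6 (2.65%), and VMA10 in ecm2 (0.37 and 0.35, fitted 0.36 ± 0.12, limma adjusted p = 0.0367), 1 of 6 (24.2%). Neither passed when either array of its strain was left out, and that of ecm2 did not pass after centring (0.18). Because the dbr1 RNA was pooled with that of sporulating cells, the meiotic genes on the array were read beside it: of 7 tested 0 rose and 2 fell, with a median of −0.27, and their part in the dbr1 values was not tested.

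**Figure D4:**
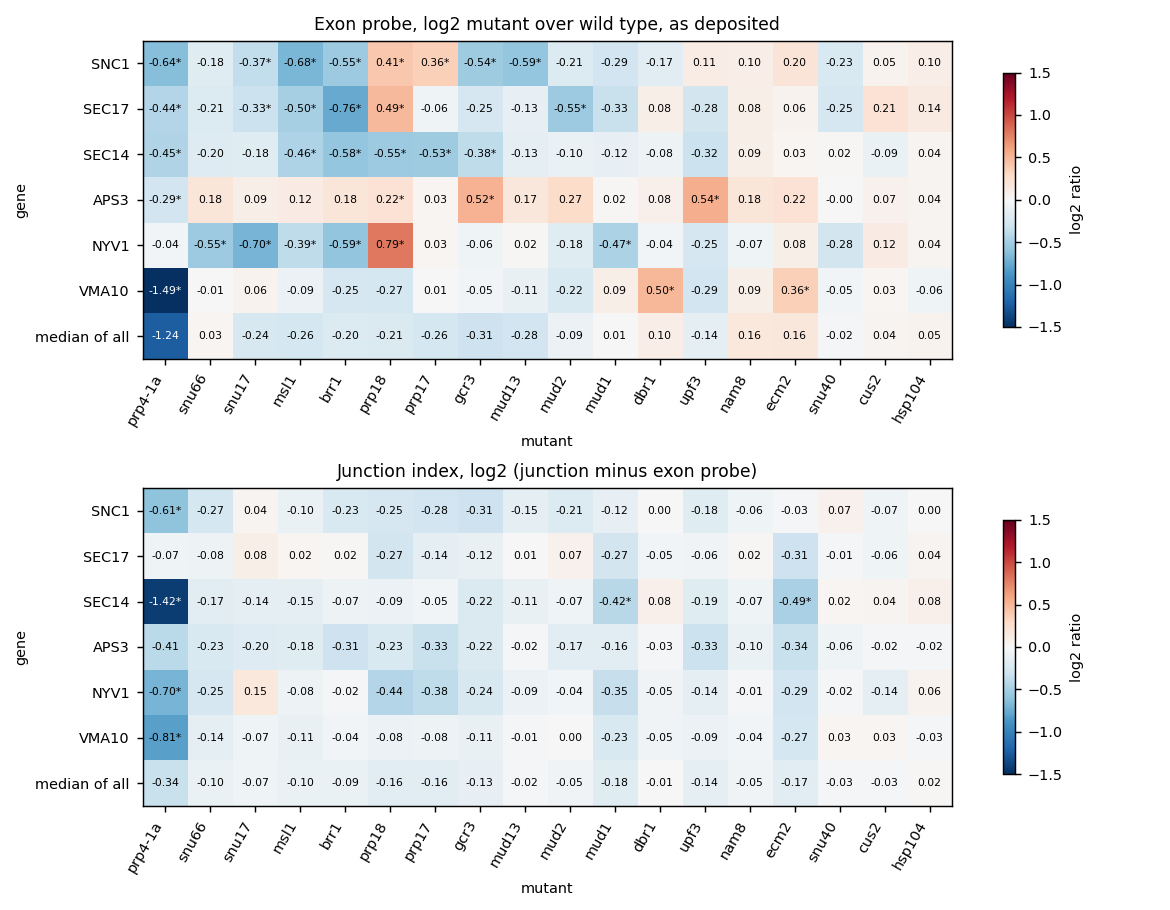
Exon probe as deposited (upper panel) and junction index (lower panel), log2 of mutant over wild type, for the 6 genes in 18 mutants with the median of all genes in the bottom line of each. An asterisk marks an adjusted p under 0.05; the exon probes of NYV1 (0.79), SEC17 (0.49), SNC1 (0.41) and APS3 (0.22) rose in prp18, and 4 of the 6 lowered junctions are in the prp4-1a column.

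Introns of other genes were ranked by the likeness of their excess to that of each member over the 17 deletion strains, as Pearson r over fitted values that share the array median and the exon and wild-type channels of each strain. SNC1 was most like UBC13 (r = 0.91), intron 1 of EFM5 (0.87) and IAI11 (0.84), with n = 17 strains. NYV1 was most like DID4 (r = 0.90), YOP1 (0.86) and RIM1 (0.83), with n = 17. SEC14 was most like NMD2 and MMS2 (r = 0.81 for each) and QCR9 (0.79), with n = 16. VMA10 was most like the ribosomal protein genes RPS27B (r = 0.79), RPS21A (0.77) and RPL39 (0.77), with n = 17. APS3 was most like DBP2 (r = 0.75), SAC6 (0.75) and CPT1 (0.74), with n = 17. SEC17 had the lowest top values, with APE2 (r = 0.60), RPS21B (0.51) and RPS23A (0.51), with n = 17. Over all 215 introns compared, the median r for each of the 6 genes lay between −0.06 and 0.05. The first in rank was the same over all 18 mutants for SNC1, NYV1, SEC14 and SEC17, and was SAC6 for APS3 and RPS21A for VMA10. With the index in place of its excess, the first in rank stayed UBC13 for SNC1 and DID4 for NYV1 and became UBC4 for APS3, SMD2 for SEC14, RPS23A for SEC17 and RPS10B for VMA10.

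Among the 6 genes themselves the highest r of excess was that of NYV1 and SEC14, 0.75 over 16 strains (the 9th nearest to NYV1 and the 4th nearest to SEC14). With the index, NYV1 and SEC14 had r = 0.91 and SEC14 was the 3rd nearest to APS3 (r = 0.88), with NYV1 the 12th (r = 0.84). High r was common with the index: over all 215 introns its median was 0.56 for APS3, 0.51 for NYV1 and 0.72 for SEC14. In excess SNC1 and VMA10 had r = 0.31. APS3 ran against VMA10 (r = −0.52) and SEC17 (r = −0.47) in excess, and the remaining pairs lay between −0.23 and 0.42, with n = 16 or 17. With the index, r was 0.69 for SNC1 and VMA10, 0.63 for APS3 and VMA10 and 0.60 for APS3 and SEC17. A negative r here means that the excess of 1 gene was high, against its own mean over strains, where that of the other was low.

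Of a list of 14 other genes, meant for the secretory pathway, 10 had probes: SAR1, ARF2, BET1, BOS1, ERD2, ERV41, YIP3, SFT1, SEC27 and VPS75. The last encodes a histone chaperone despite its name and is counted only because the list held it. All 10 introns rose in prp4-1a, brr1, snu17 and snu66, as did the 7 tested in msl1. The count was 9 of 10 in prp18, 8 of 10 in gcr3, 8 of 9 in dbr1, 7 of 10 in mud13, 6 of 10 in mud2, 5 of 9 in prp17, 4 of 10 in mud1 and 3 of 9 in upf3, and no intron of the 10 fell. In gcr3 SAR1 (2.89 ± 0.19) exceeded SNC1, and in snu66 YIP3 (3.02 ± 0.16) exceeded VMA10. In nam8 and ecm2, where none of the 6 genes rose, SAR1 (1.69 ± 0.19) and VPS75 (0.48 ± 0.13) were the 1 gene of the 10 in each to do so. The median index of the 10 was 0.46 in mud2 and 0.42 in mud1, against 1.33 and 0.68 for the 6 genes and 0.41 and 0.18 for all introns. In gcr3 it was 1.33 against 1.05, and in mud13 0.53 against 0.33, so there the 6 genes had the lower median.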

How the data were processed

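The log2 ratios of the 2 channels, 1 per spot and array, were deposited by the authors and were read as channel 2 over channel 1, the likely direction. The sources used here do not give the steps between scan and ratio. Differences between recurring values of an array matched log2 of ratios of whole numbers up to 400 in 247 of 1562 cases within 3e-08, against 3 at base e and 8 at base 10. Each array had 3456 spots, or 864 probes of 4 spots, and 2127 to 2792 of 2896 spots with a symbol were usable (median 2478). Spots at exactly 0 (8 to 985 per array) and blanks (0 to 1110) were missing, and usable spots were averaged. No scaling was added. The files do not state probe roles, which were taken from probe order (junction, intron, exon in 216 genes, 2 introns in 7).

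Ratios were turned to mutant over wild type. All 36 arrays entered 1 limma fit per measure (limma 3.58.1, R 4.3.3) with 1 term for each mutant and another for the dye, which is the replicate block: same-numbered arrays share their dye orientation. P-values were adjusted by Benjamini-Hochberg within mutant and measure at 0.05. The median residual degrees of freedom were 17. The fit was tested on simulated data with effects in mud1 and snu66 and, for each feature, the same spread on every array. That simulation cannot show how the fit behaves for mutants with a wider spread.

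The 6 genes, the lists and the compared strains were chosen with earlier results of these data known. Named were the 6 genes, the 3 introns most like each, the deleted genes with probes, and up to 3 called genes of the secretory list per mutant. Alternatives were other centrings, spot handling, weights, reference strain, probes alone, a threshold of 0.01 and each array left out. Sequences and intron lengths were not analysed here.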

Additional observations from a re-analysis of the deposited data

How the results depend on the processing

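Leaving out 1 array at a time gave 52 to 58 raised and 0 lowered introns (55 and 0 in the reported fit), 0 to 2 raised and 5 to 21 lowered junctions (0 and 6), 6 to 10 raised and 21 to 29 lowered exon values (9 and 24), and 33 to 39 higher and 9 to 13 lower excesses (35 and 10). Without the dye term, that is without the replicate block, 50 introns rose, 4 exon values rose, and the other counts stayed within 1.5 times. Introns measured on all 36 arrays gave 21 rises, 18 higher and 3 lower excesses, since 4 of the 6 genes were then left out. Against hsp104 3 junctions fell, 3 exon values rose and 23 excesses were higher. Lowered junctions numbered 27 with weights by mutant, 15 with deletion strains alone, 23 from the junction probe alone and 12 from that probe after centring, which also gave 1 and 5 raised. Raised exon values numbered 26 after centring on exon and intronless probes, 5 at a threshold of 0.01 and 4 from the 2 arrays of a mutant alone, which gave 6 lower excesses, as did the median outside ribosomal protein genes. Single values turned sign for SEC14 by the intron probe alone (−0.00 in gcr3, −0.0737 in prp17) and for prp4-1a values. These were the NYV1 junction (0.46 by the junction probe after centring, 0.26 without replicate 3, and −1.66 without replicate 5), the exon probes after centring of SNC1 (0.56), SEC17 (0.76), APS3 (0.91, and 0.0843 on all named probes) and SEC14 (0.75), and the excess outside ribosomal protein genes of SEC17 (0.43), APS3 (0.11) and NYV1 (0.11). The cause was not tested. Here and below, counts of the 6 genes stand without the share of all introns or genes at the same setting. A change in count is therefore not a result about the 6 genes alone. At 2 arrays per mutant, without intensities, depth of signal is unknown.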

Other observations

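Some introns of the 6 genes were measured on 1 array of a mutant and entered no test. For APS3 the single arrays read 0.97 in snu17, 0.91 in msl1, 0.29 in prp17, 0.07 in snu40 and 0.06 in gcr3 with the mutant in channel 1, and 0.06 in dbr1 with the mutant in channel 2. For SNC1 they read 0.88 in prp18 and 0.53 in cus2 with the mutant in channel 1, and −0.15 in ecm2 and −0.41 in upf3 with the mutant in channel 2. The SEC17 intron read −0.09 in hsp104 with the mutant in channel 2. On single arrays these values carry the dye offset, which lay between 0.17 and 0.29 for the 5 genes measured on the hsp104 array with the mutant in channel 1. When 1 usable array was enough for a test, an alternative chosen after seeing the data, 58 intron values of the 6 genes rose and 0 fell.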
